A study of Rattus norvegicus with 35 samples.

Results

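miR-192 and miR-194 are clustered miRNAs of the liver, gut and kidney, and the 4 listed mature arms of their hairpins were followed here: miR-192-5p, miR-192-3p, miR-194-5p and miR-194-3p. They were taken by name from a table of raw read counts for 763 rat miRNAs, so 4 of 763 listed miRNAs are described. The counts came from small RNA libraries of whole liver from male Sprague-Dawley rats that were 6 weeks old and carried no stated genetic change. Ketoconazole, an azole antifungal drug, was given by mouth each day at 10 mg/kg (low), 30 mg/kg (middle) or 100 mg/kg (high), and controls received its vehicle, 0.5% methylcellulose. Dosing lasted 3, 7 or 14 days, with tissue collected 24 h after it ended, which makes 12 groups over which the design compares dose and duration. Each group had 3 libraries except the day 14 control with 2, giving 35 libraries. Replicates are numbered in the labels, but no label says that they are different animals, and the p-values here then cover only the variation among these libraries, which may be technical.

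A miRNA is cut from the 2 arms of a hairpin, and the arm that is kept guides a silencing complex to messenger RNAs that pair with its seed, bases 2 to 8. miR-192 and miR-194 are transcribed together in epithelial cells of the liver, intestine and kidney under hepatocyte nuclear factors, and their expression is also known to be raised by p53. miR-192-5p is one of the most abundant miRNAs of hepatocytes and has been studied as a circulating marker of liver injury. miR-194-5p has been described as a marker of hepatic epithelial cells.

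The mature sequences show which arms could act on the same targets. They are printed 5′ to 3′ from RefSeq (GRCr8 table) with the seed in capitals, and all 4 arms were matched by name.
miR-192-5p: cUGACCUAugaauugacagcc
miR-192-3p: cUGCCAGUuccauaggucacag
miR-194-5p: uGUAACAGcaacuccaugugga
miR-194-3p: cCAGUGGGgcugcuguuaucu
miR-215: aUGACCUAugauuugacagaca
The 4 arms carry 4 different seeds. miR-192-5p shares its seed with miR-215, which is not analysed here. Over 21 aligned bases, counted from 1 at the 5′ end of miR-192-5p, 18 are identical and the substitutions are C1A, A12U and C20A. miR-192-3p shares its seed with miR-3084c-3p, also not analysed here.

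The hairpins show which counts can hold reads from more than 1 gene copy. In the RefSeq table Mir194-2 lies next to Mir192, between Atg2a and Ehd1, and Mir194-1 lies next to Mir215 within Iars2. The Mir192 and Mir194-2 hairpins are printed with both mature arms in capitals.
Mir192: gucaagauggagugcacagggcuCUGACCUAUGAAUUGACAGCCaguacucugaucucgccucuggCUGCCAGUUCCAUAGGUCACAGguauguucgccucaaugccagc
Mir194-2: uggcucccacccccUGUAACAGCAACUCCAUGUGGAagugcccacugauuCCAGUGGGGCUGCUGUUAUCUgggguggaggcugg
miR-194-5p is identical in the Mir194-1 and Mir194-2 hairpins. The listed miR-194-3p occurs only in Mir194-2. The matching stretch of Mir194-1 differs from it, as follows.
Mir194-1 stretch: ccaguggagcugcuguuacuu
It has 18 of 21 bases identical, with the substitutions G8A, U19C and C20U counted from 1 at the 5′ end of miR-194-3p, and the first of these lies in the seed. The 5p count can therefore hold reads of both copies. How reads that match several copies, or come from the Mir194-1 3p arm, were assigned is not given in the sources used here.

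Library totals ran from 2665943 to 9665416 counts, with a median of 3758063, and 328 miRNAs passed the filter on low counts, all 4 arms among them. Along the first principal component, 14 libraries (all controls, low dose day 3 and low dose day 14) lay on one side and the other 21 (low dose day 7 and every middle and high dose group) on the other. The labels name no batch, so a batch that followed this division and the treatment cannot be told apart. Replicates 2 and 3 of the day 7 control lay farthest out on the control side, at component scores of -14.49 and -13.26. All 3 dose averages below are set against the same 8 control libraries, so they share the deviations of those libraries.

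Levels are given as CPM, read counts relative to a library size scaled by edgeR's trimmed mean method (TMM). They compare libraries and are not absolute amounts. The 5p arms were far more abundant than the 3p arms. miR-192-5p held 17.28% of all counts on average and ranked 2 among the listed miRNAs, with a median of 172200 CPM and a range over libraries from 139173 to 234626. miR-194-5p ranked 26 at a median of 5508 CPM (range 3989 to 9222). The 3p arms were minor products, with medians of 64.0 CPM for miR-192-3p (rank 152, 142 to 491 counts per library) and 45.7 CPM for miR-194-3p (rank 171, 63 to 369 counts). Counting error alone therefore reaches 13% of a library's value for miR-194-3p and 8.4% for miR-192-3p. The 4 arms together made up 14.2% to 23.3% of a library's counts, nearly all of it miR-192-5p.

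**Figure D1:**
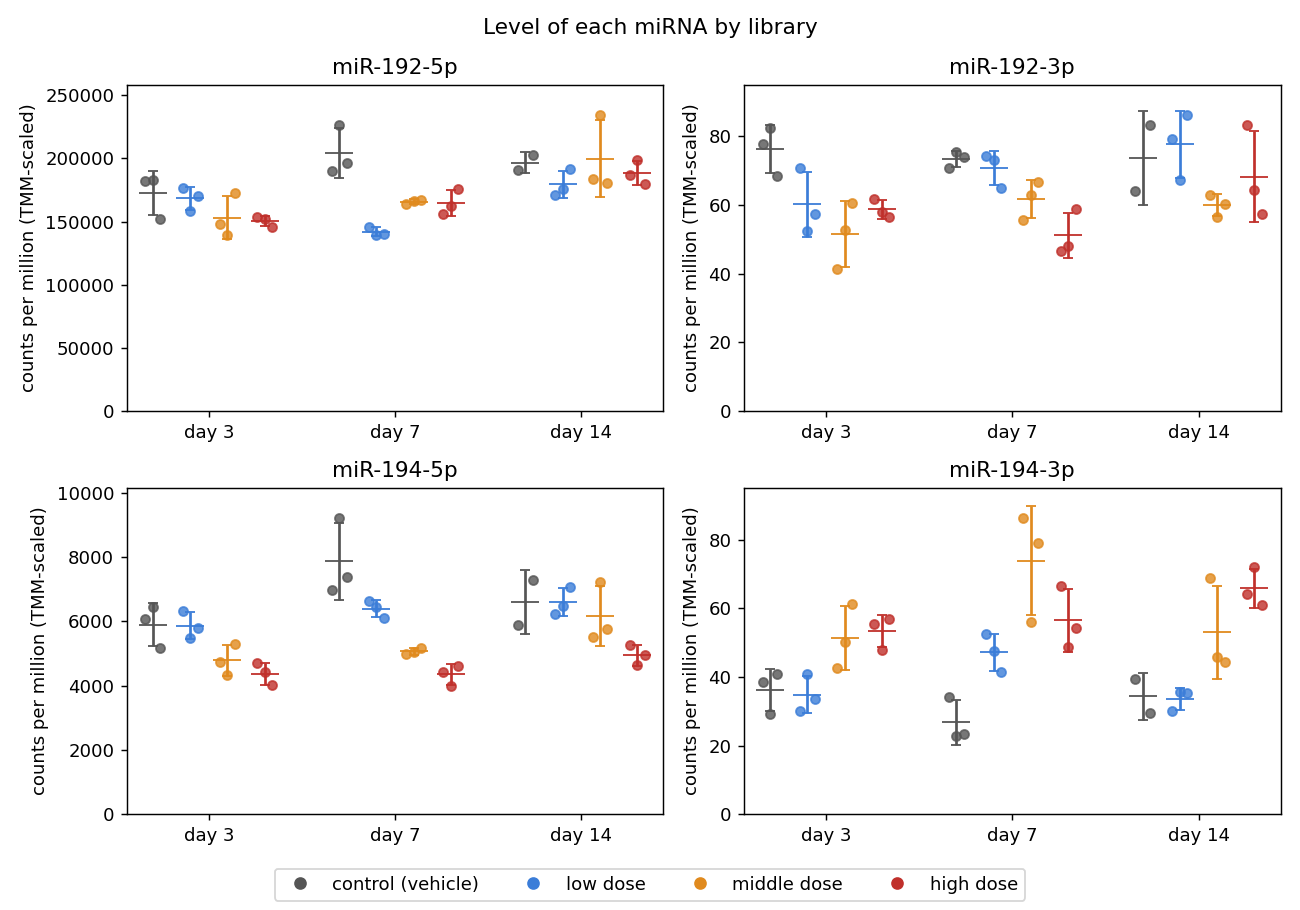
Level of each arm (y axis, CPM, linear from 0) in the 12 groups (x axis, dose by day); points are libraries and bars are the group mean with the SD (n = 3, and 2 for the day 14 control). The middle and high dose points of miR-194-3p lie at 42.6 CPM or more and those of the controls at 40.7 or less, while the points of miR-192-5p overlap across most groups.

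The 4 arms did not move alike. Averaged over the 3 days, the high dose changed all 4 arms against the controls: miR-194-5p, miR-192-5p and miR-192-3p fell and miR-194-3p rose. This must be read against a wide response of the liver miRNAs, since 62.8% of the 328 tested miRNAs passed the threshold in the same comparison, 31.4% lower and 31.4% higher. In the middle dose average all 4 arms also passed, where 61.9% of tested miRNAs did, 29.9% lower and 32% higher. With library size alone in place of TMM, 83 of the 201 calls of the middle dose average were higher, against 105 of 203, and the median of all miRNAs moved from -0.02 to -0.17. The directions of the 4 arms in the high and middle dose averages held under each scaling run. In the low dose average 1 of the 4 arms, miR-192-5p, passed, where 22.6% did. Libraries lying beyond the controls are counted below for the 4 arms. The same was not counted for the other tested miRNAs, so such separation is not shown to be particular to an arm. In whole liver, fewer cells of a type and less of a miRNA per cell cannot be told apart.

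miR-194-5p, the guide strand of miR-194, had the largest fall of the 4 arms in the high dose average. Control levels were 6082, 6436 and 5160 CPM on day 3, 6970, 9222 and 7379 on day 7, and 5891 and 7295 on day 14. At the high dose they were 4685, 4427 and 4006 CPM on day 3, 4422, 3989 and 4619 on day 7, and 5261, 4624 and 4936 on day 14. On each day every high dose library lay below every control of that day. Of the 9 high dose libraries, 8 lay below all 8 controls. In the high dose average 31.4% of tested miRNAs were called lower, and how many of them separated likewise was not counted. Averaged over days, miR-194-5p fell by 0.57 ± 0.07 on the log2 scale (SE; 32.5% lower; adjusted p = 3.968e-08, quasi-likelihood F-test of edgeR, Benjamini-Hochberg adjusted). This call held under every alternative run.

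At the middle dose miR-194-5p measured 4740, 4331 and 5277 CPM on day 3, 4966, 5051 and 5178 on day 7, and 5508, 7235 and 5769 on day 14. The day 7 libraries lay below all day 7 controls, and those of days 3 and 14 overlapped them. The average fell by 0.34 ± 0.07 (edgeR adjusted p = 0.0001308), and was -0.20 and not called without day 7. At the low dose the levels were 5463 to 6303 CPM on day 3, 6095 to 6635 on day 7 and 6211 to 7059 on day 14. None of these 9 libraries fell outside the range of the 8 controls, and the average of -0.10 ± 0.07 did not pass (edgeR adjusted p = 0.3316). It was called at -0.25 when replicate 1 of the day 14 control was left out, and at -0.18 when replicate 1 of the day 7 control was.

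miR-194-3p, the minor arm, went the other way. Control levels were 38.6, 29.1 and 40.7 CPM on day 3, 34.3, 22.7 and 23.4 on day 7, and 39.3 and 29.6 on day 14. High dose levels were 55.4, 47.9 and 56.9 CPM on day 3, 66.6, 48.8 and 54.2 on day 7, and 64.3, 72.1 and 61.1 on day 14. Middle dose levels were 42.6, 50.1 and 61.2 CPM on day 3, 86.5, 56.0 and 79.1 on day 7, and 68.8, 45.7 and 44.5 on day 14. All 9 high and all 9 middle dose libraries lay above all 8 controls. Of all tested miRNAs, 31.4% were called higher in the high dose average and 32% in the middle dose average. How many of them separated this fully was not counted.

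The rise of miR-194-3p over the 3 days was 0.86 ± 0.12 on the log2 scale at the high dose (1.81-fold; edgeR adjusted p = 5.314e-07) and 0.86 ± 0.12 at the middle dose (edgeR adjusted p = 6.616e-07). Both calls held under every alternative run. The difference between the high and middle doses was -0.0006 with a 95% interval of -0.24 to 0.24, so a difference of that size is not excluded. At the low dose the level was 30.1, 40.8 and 33.6 CPM on day 3, 52.5, 47.6 and 41.5 on day 7, and 30.0, 35.5 and 35.4 on day 14. The 3 libraries of day 7 lay above all 8 controls. On day 3, replicate 2 was level with the highest control, at 40.76 against 40.73 CPM, a gap small beside the counting error. The libraries of day 14 lay within the control range, and the low dose average of 0.24 ± 0.12 did not pass (edgeR adjusted p = 0.171).

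The opposite movement of the 2 arms was measured within each library, where no scaling between libraries is needed. In controls miR-194-5p outnumbered miR-194-3p by 168.5 ± 48.2 to 1 on day 3 (SD, n = 3), 308.4 ± 102 on day 7 (n = 3) and 198.4 ± 68.5 on day 14 (n = 2). At the high dose the ratios were 82.5 ± 11.1, 77.8 ± 10.0 and 75.6 ± 9.95 on the same days (n = 3 each). At the middle dose they were 94.7 ± 14.4, 71.0 ± 17.1 and 122.6 ± 39.5. Every high dose library lay below every control of its day, which was not counted for other hairpins.

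The log2 ratio of miR-194-5p to miR-194-3p was lower at the high dose than in controls (difference -1.43, 2.70-fold; 9 of 9 libraries below their day's control mean). The exact two-sided permutation test with labels exchanged within days gave p = 0.00025, the smallest it can give, and 0.001 after adjustment over 12 ratio tests. At the middle dose the difference was -1.20 (9 of 9 libraries; exact permutation p = 0.00075, adjusted 0.00225). At the low dose it was -0.35 and did not pass (exact permutation p = 0.1255, adjusted 0.167), made up of 0.04 on day 3, -1.12 on day 7 and 0.03 on day 14. Without control day 14 replicate 1 the low dose difference was -0.47 and passed (exact permutation, adjusted p = 0.04313). The high and middle doses differed by -0.23 (exact permutation p = 0.16, adjusted 0.192).

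As a share of all reads listed as miR-194, whose 5p part can hold both gene copies, the 3p arm made up 0.621%, 0.35% and 0.533% in the controls of days 3, 7 and 14. It made up 1.21%, 1.28% and 1.32% at the high dose. The miR-192 ratio did not pass the test at any dose. The log2 ratio of miR-192-5p to miR-192-3p differed from controls by 0.15 at the high dose (exact permutation p = 0.06875, adjusted 0.103), by 0.22 at the middle dose (exact permutation p = 0.04375, adjusted 0.075) and by -0.12 at the low dose (exact permutation p = 0.274, adjusted 0.299). Leaving out 1 library made it pass at the middle dose without control day 7 replicate 2 (0.24) or middle day 7 replicate 3 (0.24), and at the high dose without control day 14 replicate 1 (0.20) or high day 14 replicate 1 (0.20). Group means of this ratio ran from 2010 to 3353, so that miR-192-3p made up 0.031% to 0.0499% of the reads of its hairpin.

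**Figure D2:**
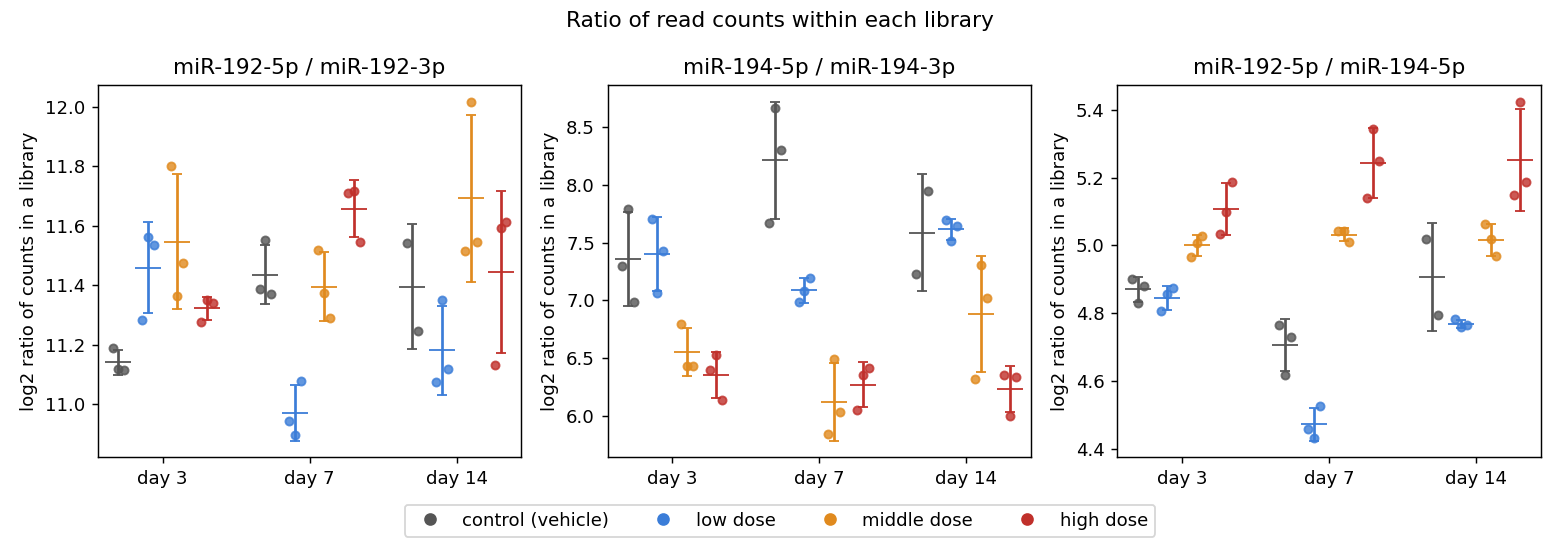
Ratios of read counts within each library (y axes, log2 scale) by dose and day (x axis); points are libraries, and bars are the group mean with the SD (n = 3, and 2 for the day 14 control). The miR-194-5p to miR-194-3p ratio drops in all high dose libraries below the controls of the same day, and the miR-192-5p to miR-194-5p ratio is higher in all high dose libraries than their day's control mean.

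A shift between the arms was common in these livers. Arms were paired only where their names differ in nothing but 5p and 3p, which gave 96 pairs with both arms tested. miRNAs whose 3p name carries a copy number, such as let-7a, let-7c, let-7f and miR-125b, were left out. For miR-125b the 5p arm was at -1.08, miR-125b-2-3p at 1.39 and miR-125b-1-3p at -0.57. The ranks and counts below therefore do not cover all tested arms. Among the 96, the median absolute change in the log2 ratio of the arms in the high dose average was 0.576. miR-194 ranked 14 of 96, with a change of -1.42, and miR-192 ranked 80, with 0.15. The arms had opposite signs in 45 of the 96 pairs, and in 31 of them the 5p arm was lower and the 3p arm higher, as for miR-194. A pair is matched by name and need not come from 1 hairpin, since the miR-194-5p count can hold reads of both gene copies. Signs were counted whatever the size of the change, with values near 0 included. The arm differences of the other pairs were not tested.

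**Figure D3:**
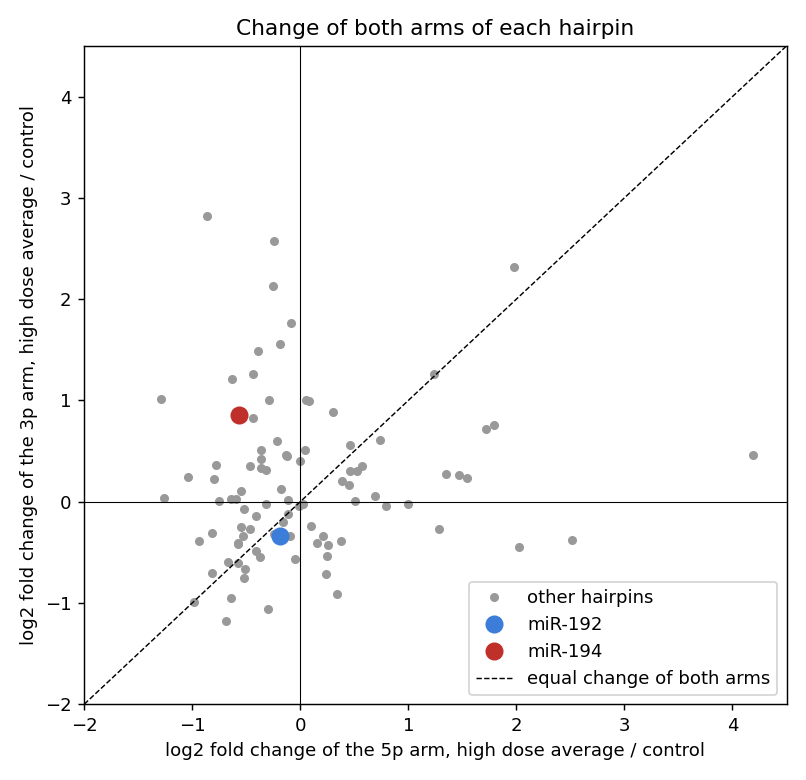
log2 fold change of the 5p arm (x axis) against the 3p arm (y axis) in the high dose average over control for 96 pairs of arms. Each point is 1 pair matched by name, and the diagonal marks equal change. A pair need not come from 1 hairpin, since the miR-194-5p count can hold reads of both gene copies. miR-194 lies in the area with a lower 5p and a higher 3p arm, at -0.57 and 0.86, and miR-192 lies near the diagonal, at -0.19 and -0.34.

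miR-192-5p, the dominant arm, changed little in proportion. Control levels were 181815, 183085 and 152121 CPM on day 3, 189699, 226553 and 195968 on day 7, and 190947 and 202312 on day 14. High dose levels were 153499, 151639 and 146018 CPM on day 3, 155746, 162034 and 175728 on day 7, and 186453, 198409 and 179622 on day 14. High dose libraries lay below all controls of their day on day 7, and overlapped them on days 3 and 14. Middle dose levels were 148062, 139173 and 172203 CPM on day 3, 163656, 166584 and 166829 on day 7, and 183985, 234626 and 180492 on day 14. Low dose levels were 176230, 158336 and 170216 CPM on day 3 and 170996, 175532 and 191769 on day 14, with day 7 described further on. Neither dose was free of overlap with the controls on day 3, and the highest single level of any library was at the middle dose on day 14.

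In the high dose average miR-192-5p fell by 0.19 ± 0.06 on the log2 scale (8 of 9 libraries lower; edgeR adjusted p = 0.004776). At the middle dose it fell by 0.15 ± 0.06 (8 of 9 lower; edgeR adjusted p = 0.02367) and at the low dose by 0.23 ± 0.06 (8 of 9 lower; edgeR adjusted p = 0.003119). These small changes rested in part on day 7. Without day 7 they were -0.13, -0.07 and -0.08 and were not called, and without a low-count filter the high and middle dose averages were -0.12 and -0.13 and were not called. The middle dose call was also lost without control day 3 replicate 1 (-0.14), middle dose day 3 replicate 2 (-0.13) or middle dose day 14 replicate 3 (-0.13).

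miR-192-3p, the minor arm of miR-192, measured 77.9, 82.4 and 68.6 CPM in the day 3 controls, 70.9, 75.5 and 74.0 on day 7, and 64.0 and 83.3 on day 14. High dose levels were 61.9, 58.1 and 56.4 CPM on day 3, 46.5, 48.2 and 58.8 on day 7, and 83.2, 64.3 and 57.4 on day 14. Middle dose levels were 41.5, 52.8 and 60.5 CPM on day 3, 55.8, 62.8 and 66.6 on day 7, and 62.9, 56.6 and 60.4 on day 14. The middle dose libraries lay below all controls on each of the 3 days, and 8 of 9 lay below all 8 controls. In the middle dose average 29.9% of tested miRNAs were called lower, and how many of them separated likewise was not counted. The high dose libraries lay below the controls on days 3 and 7 and overlapped them on day 14. At the low dose miR-192-3p measured 70.8, 52.4 and 57.4 CPM on day 3, 74.2, 73.2 and 65.1 on day 7, and 79.4, 67.3 and 86.3 on day 14, overlapping the controls each day. miR-192-3p fell by 0.37 ± 0.10 in the middle dose average (9 of 9 lower; edgeR adjusted p = 0.001367) and by 0.34 ± 0.10 in the high dose average (8 of 9 lower; edgeR adjusted p = 0.00334), the latter not called without day 7 at -0.24. The low dose average of -0.11 ± 0.10 did not pass (edgeR adjusted p = 0.4633), but was -0.26 and called without control day 14 replicate 1.

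The 2 abundant arms, miR-192-5p and miR-194-5p, were compared within each library. miR-194-5p can also come from Mir194-1, outside the Mir192 locus, so this is not a ratio within 1 cluster. Their ratio was 29.3 in the day 3 controls, 26.1 on day 7 and 30.1 on day 14, against 34.5, 38.0 and 38.3 at the high dose and 32.0, 32.7 and 32.4 at the middle dose. At the low dose it was 28.8 on day 3, 22.2 on day 7 and 27.3 on day 14. The means lay above those of the controls at the high and middle doses and below them at the low dose on each day.

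The log2 ratio was higher than in controls by 0.37 at the high dose (9 of 9 libraries; exact permutation p = 0.00025, adjusted 0.001) and by 0.19 at the middle dose (9 of 9; exact permutation p = 0.00125, adjusted 0.003), and lower by 0.13 at the low dose (difference -0.13, 8 of 9; exact permutation p = 0.002, adjusted 0.004). High exceeded middle by 0.18 (9 of 9; exact permutation p = 0.00025, adjusted 0.001). Leaving out day 7 took the middle dose value to 0.12 and the low dose value to -0.08, neither called. Between the high and middle doses by count model, miR-194-5p was lower by 0.22 (log2 difference -0.22 ± 0.07; edgeR adjusted p = 0.02215), and 17.4% of tested miRNAs passed in that comparison. The miR-194-5p call was lost with library size alone (-0.15), without a low-count filter (-0.17), without day 7 (-0.23), or without any of 8 single libraries: middle dose day 3 replicate 1 (-0.20) or 3 (-0.19), middle day 7 replicate 1 (-0.20), middle day 14 replicate 2 (-0.15), high day 3 replicate 1 (-0.19) or 3 (-0.20), and high day 14 replicate 1 (-0.21) or 2 (-0.19). miR-192-5p (-0.04 ± 0.06) and miR-192-3p (0.04 ± 0.09) did not pass there.

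**Figure D4:**
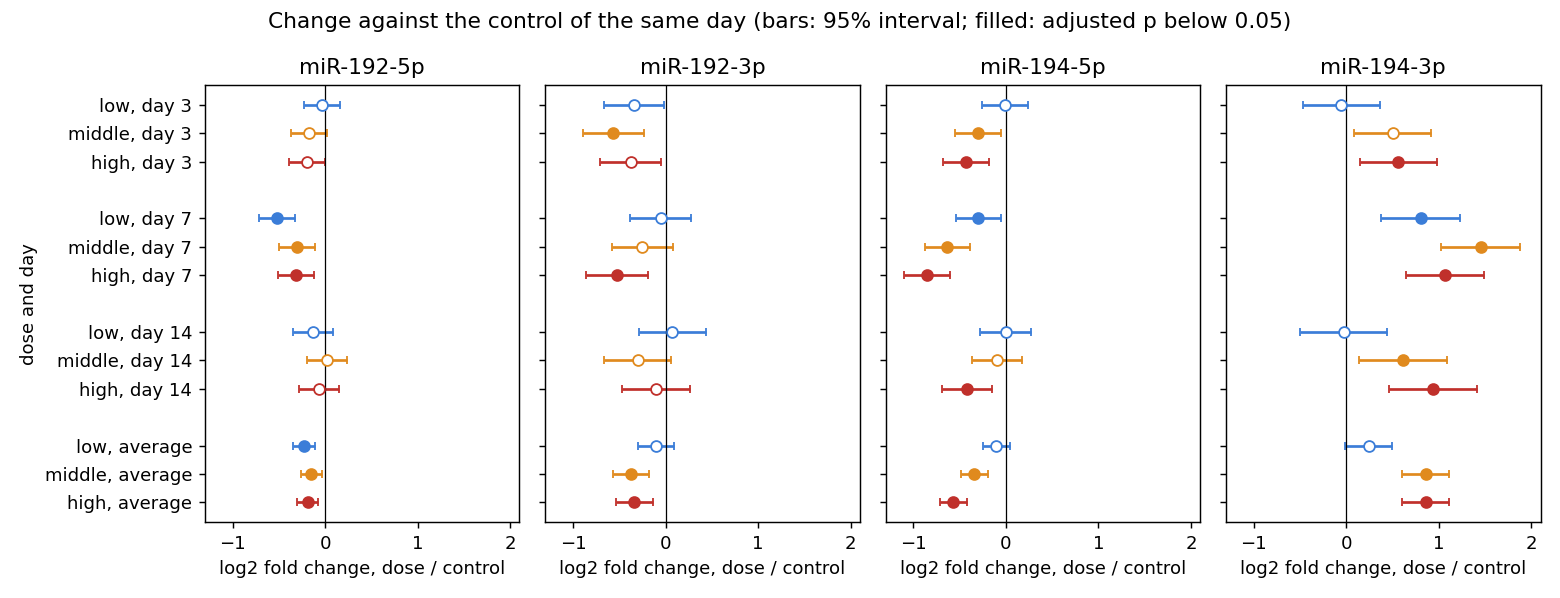
log2 fold change of each arm against the control of the same day (x axis) for each dose on days 3, 7 and 14 and as the average over days (y axis). Points are edgeR estimates, filled where the adjusted p is below 0.05, and bars are 95% intervals. miR-194-3p sits above 0 and miR-194-5p below 0 at every day of the high dose.

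Day by day, the miR-194 arms passed at the high dose on all 3 days. On day 3, where 35.1% of miRNAs passed, 2 of the 4 arms did: miR-194-5p fell by 0.43 ± 0.12 (edgeR adjusted p = 0.00475) and miR-194-3p rose by 0.56 ± 0.20 (edgeR adjusted p = 0.0299). On day 7, where 51.8% passed, all 4 did, with miR-194-5p at -0.86 ± 0.12 (edgeR adjusted p = 5.857e-07), miR-194-3p at 1.07 ± 0.21 (7.374e-05), miR-192-5p at -0.31 ± 0.10 (0.00722) and miR-192-3p at -0.52 ± 0.16 (0.00748). On day 14, where 35.4% passed, 2 did: miR-194-5p at -0.42 ± 0.13 (edgeR adjusted p = 0.01463) and miR-194-3p at 0.94 ± 0.24 (0.00208). The effects on day 7 or 14 minus day 3 were not called for any arm or any of the 328 miRNAs (0% each in edgeR, 36 and 24 at an unadjusted p under 0.05, 0 by DESeq2). Without control day 7 replicate 1, 19 miRNAs were called for day 7 minus day 3, none of the 4 arms among them.

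Some of these calls rest on few libraries. The day 3 rise of miR-194-3p was not called without control day 3 replicate 2 (0.42) or high day 3 replicate 1 (0.55) or 3 (0.52), nor with library size alone (0.54) or without a low-count filter (0.59). The day 14 calls were lost without control day 14 replicate 2, at 0.67 for miR-194-3p and -0.33 for miR-194-5p. On day 7 miR-192-5p was -0.16 without control day 7 replicate 2 and -0.10 without a low-count filter, and miR-192-3p was -0.32 without that filter, none of them called. On day 3 other calls appeared: miR-192-3p passed with DESeq2 (-0.39), its size factors (-0.38), library size alone (-0.40), the CPM filter (-0.43) or without control day 3 replicate 3 (-0.48), and miR-192-5p with library size alone (-0.22) or without that control (-0.31). On day 14 miR-192-5p passed with library size alone (-0.25).

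At the middle dose 38.1% of miRNAs passed on day 3, 50.9% on day 7 and 28.4% on day 14, against 2, 3 and 1 of the 4 arms. miR-192-3p fell by 0.57 ± 0.16 on day 3 (edgeR adjusted p = 0.0065). miR-194-5p fell by 0.30 ± 0.12 on day 3 (0.0472) and by 0.63 ± 0.12 on day 7 (5.85e-05). miR-194-3p measured 0.50 ± 0.20 on day 3 (0.0507) and rose by 1.45 ± 0.21 on day 7 (8.26e-07) and 0.61 ± 0.23 on day 14 (0.0467). miR-192-5p fell by 0.30 ± 0.10 on day 7 (0.00965).

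The day 7 changes of the miR-194 arms held under every alternative run. The miR-194-5p call of day 3 was lost without control day 3 replicate 1 (-0.28) or 2 (-0.27) or middle day 3 replicate 1 (-0.32) or 2 (-0.26), and with DESeq2's size factors (-0.29). The miR-194-3p call of day 14 was lost without control day 14 replicate 1 (0.72) or 2 (0.34) or middle day 14 replicate 1 (0.33) or 2 (0.66), and under most other settings. On day 3, miR-194-3p passed without middle day 3 replicate 1 (0.60) and with DESeq2 (0.51). miR-192-5p on day 7 was -0.24 without control day 7 replicate 2 and -0.21 without a low-count filter, neither called. Calls also appeared at the middle dose: miR-192-5p on day 3 with library size alone (-0.30) or without control day 3 replicate 3 (-0.28), and on day 14 miR-192-3p with library size alone (-0.51) or without control day 14 replicate 1 (-0.59), with miR-194-5p (-0.32) and miR-192-5p (-0.20) passing with library size alone.

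At the low dose, arms passed the test on day 7 and on no other day. On day 3 and on day 14, 0% of the 328 miRNAs passed in edgeR (25 and 11 at an unadjusted p under 0.05, 0 by DESeq2 on both days), and none of the 4 arms did. Without control day 3 replicate 1, 2 miRNAs were called on day 3. On day 7, 45.1% passed, and 3 of the 4 arms did. miR-192-5p measured 145988, 139333 and 140534 CPM at the low dose on day 7, below all 8 controls, and fell by 0.52 ± 0.10 (edgeR adjusted p = 3.516e-05), which held under every alternative run. miR-194-3p rose by 0.81 ± 0.21 (0.00181), and was 0.57 and not called without control day 7 replicate 2. miR-194-5p fell by 0.30 ± 0.12 (0.0426), a call lost without control day 7 replicate 2 (-0.29) or low day 7 replicate 1 (-0.33), 2 (-0.30) or 3 (-0.26), and with the libraries of that day alone (-0.28).

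Tests of the difference between days passed for miR-192-5p and miR-194-3p, and not for miR-194-5p or miR-192-3p. The low dose effect on day 7 minus day 3 was -0.49 ± 0.14 for miR-192-5p (edgeR adjusted p = 0.00563) and 0.86 ± 0.29 for miR-194-3p (0.0244), where 32.3% of miRNAs passed. Day 7 minus day 14 gave -0.39 ± 0.14 for miR-192-5p (0.0367) and 0.84 ± 0.31 for miR-194-3p (0.0378), where 33.2% passed. Without any control, day 7 of the low dose set against its other days gave -0.29 ± 0.08 for miR-192-5p (edgeR adjusted p = 0.00705) and 0.46 ± 0.17 for miR-194-3p (0.0437), where 30.2% passed. The miR-194-3p value there was not called without any one of 8 of the 9 libraries compared, at 0.28 to 0.46, the exception being low day 7 replicate 3, nor with DESeq2 (0.31). The first miR-192-5p difference held under every alternative run, and the second was lost without low day 7 replicate 2 (-0.38) or 3 (-0.38), or without a low-count filter (-0.38). The miR-194-3p differences were not called with DESeq2 (0.75 and 0.72), nor without any of several single libraries. They fell as low as 0.66 without control day 7 replicate 2 and 0.48 without control day 14 replicate 1. For miR-194-5p, day 7 minus day 3 was -0.29 ± 0.17 (edgeR adjusted p = 0.2095) and day 7 minus day 14 was -0.30 ± 0.18 (0.2331). Low dose day 7 against the other low dose days was 0.04 ± 0.10 for that arm (edgeR adjusted p = 0.7858).

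Comparisons between doses within day 7 also use no control. High against low gave -0.56 ± 0.12 for miR-194-5p (edgeR adjusted p = 0.00166) and -0.47 ± 0.16 for miR-192-3p (0.0317), where 24.1% of miRNAs passed, and neither miR-192-5p (0.21 ± 0.10, adjusted p = 0.101) nor miR-194-3p (0.26 ± 0.20, 0.368) did. The median of all tested miRNAs in that comparison was -0.20 with TMM and -0.04 with DESeq2's size factors, with which miR-192-5p passed at 0.37. It also passed with DESeq2 (0.37), library size alone (0.24), the CPM filter (0.31), no low-count filter (0.45) or the libraries of that day alone (0.30). The miR-192-3p call was lost without any of 5 libraries, low day 7 replicate 1 (-0.44) or 2 (-0.45) and high day 7 replicate 1 (-0.41), 2 (-0.43) or 3 (-0.41). It was also lost with DESeq2 (-0.32), its size factors (-0.32), the CPM filter (-0.37), no low-count filter (-0.24) or the libraries of that day alone (-0.38). miR-192-5p passed without high day 7 replicate 3 (0.34). The miR-194-5p call was lost without a low-count filter (-0.32). Without high day 7 replicate 3 the comparison called 49 miRNAs, against 79.

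Middle against low on day 7 gave 0.65 ± 0.20 for miR-194-3p (edgeR adjusted p = 0.0341), where 10.1% of miRNAs passed, and none of the other 3 arms did. That call was lost without low day 7 replicate 1 (0.73), 2 (0.65) or 3 (0.57) or middle day 7 replicate 1 (0.60) or 3 (0.74), and with library size alone (0.61) or the libraries of that day alone (0.66). miR-192-5p, at 0.22, passed with DESeq2 (0.31), its size factors (0.31) or without middle day 7 replicate 1 (0.32), and miR-194-5p with library size alone (-0.38). Of 33 miRNAs called in all, the count was 13 without middle day 7 replicate 3, 20 without replicate 2 and 21 without low day 7 replicate 3. On day 7 miR-194-5p averaged 6393 ± 274.5 CPM in low dose libraries, 5065 ± 106.4 in middle dose libraries and 4344 ± 322.3 in high dose libraries (SD, n = 3 each).

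Controls of different days were compared too. Between days 7 and 3, where 1.52% of miRNAs passed in edgeR, miR-194-5p differed by 0.42 ± 0.12, short of the threshold (adjusted p = 0.0534), miR-194-3p was -0.42 ± 0.21 (0.235), and none of the 4 arms was called. DESeq2 called 1 of them, miR-194-5p, and 71 of the 328 had an unadjusted p under 0.05. Without control day 7 replicate 1, both miR-194 arms were called (miR-194-3p at -0.74, edgeR adjusted p = 0.02349, and miR-194-5p at 0.38, 0.03123), with 62 miRNAs called in place of 5. Between days 14 and 3, 0% passed in edgeR, 29 had an unadjusted p under 0.05 and DESeq2 called 0, with 1 called without control day 3 replicate 1. The day 7 controls had the highest group mean of miR-194-5p, 7857 ± 1199 CPM, of miR-192-5p, 204070 ± 19720 CPM, and the lowest of miR-194-3p, 26.8 ± 6.517 CPM (SD, n = 3 each). Ordered by group mean, miR-194-5p ran down to high dose day 7 at 4344 CPM and miR-194-3p up to middle dose day 7 at 73.9 ± 15.9 CPM. Neighbours in these orders differed by no more than the replicate SD in 9 of 11 steps for miR-194-5p, 8 of 11 for miR-194-3p, 10 of 11 for miR-192-5p and 11 of 11 for miR-192-3p.

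The 2 sides of the first principal component held different levels of the miR-194 arms. miR-194-3p ranged from 22.7 to 40.8 CPM over the 14 libraries on the side of the controls. Over the other 21 it ranged from 41.5 to 86.5, with no overlap. The gap between 40.8 and 41.5 is small beside the counting error of this arm, which reaches 13%. How many other miRNAs showed no overlap was not counted. miR-194-5p overlapped, at 5160 to 9222 CPM against 3989 to 7235. miR-192-5p overlapped widely, at 152100 to 226600 against 139200 to 234600. These ranges describe the libraries and are not a test, since the component is built from the same counts.

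Over the 35 libraries the patterns most like each guide arm were found by the Pearson correlation of log2 CPM among 238 other miRNAs. All libraries and their scaling are shared, so the values are a description. For miR-194-5p the leading 5 were miR-24-2-5p (r = 0.878), miR-872-5p (0.868), miR-122-5p (0.855), miR-497-5p (0.845) and miR-15a-5p (0.833). For miR-192-5p they were lower, miR-101a-3p (0.606), let-7i-5p (0.597), miR-122-5p (0.582), miR-101b-3p (0.576) and miR-21-5p (0.565). miR-122-5p, the hepatocyte miRNA, is in both lists, but this depends on the measure. Over the 12 group means it ranked 1 for miR-194-5p (r = 0.951) and 15 for miR-192-5p (r = 0.542).

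Other liver miRNAs and their neighbours in tissue range give the setting. These lists were drawn up with earlier results of these data known. The liver-enriched label comes from the list, and no other tissue was measured. That list counts both arms of miR-122, miR-148a and miR-802, so its counts are a description. In the high dose average 8 of its 12 tested miRNAs were called higher and 2 lower. Of all 328 tested miRNAs, 31.4% were called higher and 31.4% lower. The median log2 change was 0.46 on the list and -0.04 over all 328. The largest changes on the list were rises, of 1.81 ± 0.17 for miR-365-3p, 1.72 ± 0.13 for miR-148a-5p and 0.74 ± 0.16 for miR-802-5p. The 2 that were lower were the arms of miR-122, miR-122-5p and miR-122-3p, which fell by 0.51 ± 0.09 and 0.67 ± 0.10. Among 4 tested of 5 p53-linked miRNAs, miR-34a-5p rose by 1.09 ± 0.19 and miR-34c-5p fell by 0.65 ± 0.16. Among 4 tested of 5 gut and kidney epithelium miRNAs, miR-203a-3p rose by 1.14 ± 0.10 and miR-10a-5p fell by 0.47 ± 0.07.

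Marker lists of cell types were measured in the same comparison, where 31.4% of all 328 miRNAs rose and 31.4% fell, and no listed marker was at 0 in every library. Of 4 hepatocyte markers 2 rose and 2 fell, and their summed level was 68220 to 82517 CPM over the controls and 73724 to 92519 at the high dose. Both endothelial markers, miR-126a-3p and miR-126a-5p, fell, by 0.76 ± 0.09 and 0.52 ± 0.06, and summed to 28706 to 37855 CPM in controls and 18909 to 22701 at the high dose. Of 6 white blood cell markers 1 rose and 3 fell, and of 4 red blood cell markers 1 rose and 1 fell. Of 5 stellate and smooth muscle markers 2 rose and 1 fell, and of 5 bile duct markers 1 rose and 2 fell. Their part in the changes of the miR-192 and miR-194 arms was not tested.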

How the data were processed

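Small RNA of rat liver was sequenced from total RNA, with RNeasy kits for extraction and Illumina TruSeq Small RNA kits for libraries, per the labels' protocols. The authors deposited raw read counts for each mature miRNA, not normalized, in 37 columns. The submitters' processing notes name the genome build rn6. Which aligner, counting tool and miRNA annotation were used is not given in the sources here. The 2 runs of each of middle dose day 14 replicates 2 and 3 were summed. Of 763 miRNAs, 151 had 0 counts in every library. The filter filterByExpr by group (minimum count 10, minimum total 15) kept 328.

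The test was the robust quasi-likelihood F-test of edgeR 4.0.16 in R 4.3.3, after TMM scaling. All 35 libraries entered 1 model with a mean for every group and 23 residual degrees of freedom. Benjamini-Hochberg adjustment ran over the 328 miRNAs in each comparison, with a threshold of 0.05. Standard errors were obtained from each log2 fold change and its F value (size over the root of F), and intervals are at 95%. Ratios within a library were compared by exact two-sided permutation tests with labels exchanged within days, adjusted over 12 tests. Total counts ran from 2665943 to 9665416 per library, and errors of counting ignore repeated copies of a molecule, since no molecular identifiers are stated.

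Groups were taken from the sample titles. The members and lists were chosen with earlier results of these data known. The 4 arms are always given. The 5 miRNAs most like miR-192-5p and miR-194-5p have the highest Pearson r of log2 CPM (prior count 2). They were sought among tested miRNAs with a mean CPM of at least 10. Up to 3 members with the largest changes were taken from each list. For the liver-enriched list the 2 arms of miR-122 were given in addition, as its members called lower. Alternatives were other scalings, filters, DESeq2 1.42.0, subsets of libraries, the replicate number as a block, and a pseudocount of 0.5 in ratios. Sequences come from RefSeq tables of GRCr8, and no coordinates are printed because that build differs from rn6. Figures were drawn with matplotlib 3.10.9.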

Additional observations from a re-analysis of the deposited data

Results flagged for a closer look

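The effect of the low dose on 2 arms differed between days by a test of the difference itself. For miR-192-5p the low dose effect on day 7 minus day 3 was -0.49 on the log2 scale and that on day 7 minus day 14 was -0.39. The first held under every alternative run, and the second was not called without low dose day 7 replicate 2 (-0.38) or 3 (-0.38) or without a low-count filter (-0.38). For miR-194-3p the same differences were 0.86 and 0.84 on the log2 scale. The differences of miR-194-3p were lost under several settings. For day 7 minus day 3 they were 0.75 with DESeq2, and 0.81 or 0.72 without control day 3 replicate 1 or 3, 0.66 or 0.68 without control day 7 replicate 2 or 3, 0.76 without low dose day 3 replicate 1 and 0.78 without low dose day 7 replicate 1. For day 7 minus day 14 they were 0.72 with DESeq2, and 0.57 or 0.63 without control day 7 replicate 2 or 3, 0.48 or 0.96 without control day 14 replicate 1 or 2, 0.75 or 0.83 without low dose day 7 replicate 1 or 2, and 0.62, 0.71 or 0.68 without low dose day 14 replicate 1, 2 or 3.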

How the results depend on the processing

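Over 111 results and 2073 alternatives, 1916 kept their direction and side of the threshold, 117 were no longer called, 39 became called and 1 reversed. The reversed value is miR-192-5p at the middle dose on day 14, -0.20 with library size alone. With library size alone the high against middle difference of miR-194-5p was -0.15, and without a low-count filter it was -0.17. Without that filter miR-192-5p was -0.13 in the middle and -0.12 in the high dose average. Without day 7, miR-192-5p was -0.083, -0.074 and -0.13 in the low, middle and high dose averages, miR-194-5p was -0.20 in the middle dose average and -0.23 between high and middle, miR-192-3p was -0.24 in the high dose average, and the log2 ratio of miR-192-5p to miR-194-5p was -0.082 at the low and 0.12 at the middle dose. With 1 library left out at a time, values ranged from -0.25 to -0.13 for miR-192-5p in the middle dose average, from -0.25 to -0.057 and -0.26 to -0.052 for miR-194-5p and miR-192-3p in the low dose average, and from -0.26 to -0.15 for miR-194-5p between high and middle. The miR-192 arm ratio ranged from 0.17 to 0.27 at the middle and 0.10 to 0.20 at the high dose, and the miR-194 arm ratio from -0.47 to -0.23 at the low dose. The cause was not tested. Same-numbered replicates did not deviate together as a whole. Over 51 same-numbered pairs within a day the median correlation of deviations was -0.01 (from -0.302 to 0.213), with 14 pairs above 0.1. With so few libraries in a group, these values cannot exclude a pairing. With the replicate number as a block, miR-194-5p was -0.29 at the low dose on day 7 and -0.30 at the middle dose on day 3, no longer called, miR-194-3p was 0.50 at the middle dose on day 3, now called, and no other call of the 4 arms changed. The count of calls in the high dose average went from 206 to 205 with the block. Counts of called miRNAs fell from 74 to 0 in the low dose average and from 57 to 30 between high and middle without day 7, from 79 to 45 between high and low on day 7 and from 33 to 20 between middle and low on day 7 without a low-count filter, and to 19 with the libraries of that day alone. Between controls of days 7 and 3 the count moved from 5 to 15 with DESeq2, 3 with its size factors or the CPM filter, 1 without a low-count filter, 0 with the block and 62 without control day 7 replicate 1 (1 to 3 without day 3 replicate 1 or 3 or day 7 replicate 2 or 3). Without day 7 replicate 1 the high dose effect on day 7 minus day 3 had 19 calls against 0, and the low dose average 115 against 74. With library size alone 83 of 201 calls of the middle dose average were higher, against 105 of 203, and the median of all miRNAs was -0.17 against -0.02. That scaling put the median at -0.18 (from -0.06) for middle dose day 3, at -0.19 (from 0.03) for middle dose day 14 and at -0.15 (from 0.03) for high dose day 14. Depth limits the 3p arms most, with as few as 63 counts of miR-194-3p in a library.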

Other observations

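Across the 35 libraries, miR-194-5p and miR-194-3p correlated at r = -0.7 (Pearson, log2 CPM). The 5p count can hold reads of both Mir194 copies and the listed 3p arm occurs in Mir194-2, so these are not 2 measures of 1 hairpin. miR-194-5p correlated with miR-192-3p at r = 0.673 and with miR-192-5p at 0.585, and the 2 arms of miR-192 correlated at 0.394. Over the 12 group means the same pairs gave -0.776, 0.753, 0.539 and 0.408. These libraries share their treatment groups and scaling, so the values are a description and carry no test.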
